A study of Mus musculus with 35 samples.

Results

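Microglia of the spinal cord were compared between rNLS8 mice with early disease and rNLS8 mice in which the disease transgene was kept silent. The members were chosen by the group labels alone, as the 7 libraries labelled early disease and the 6 libraries of rNLS8 mice that had never left doxycycline, out of 35 libraries in the series. Both groups carried the NEFH-tTA and tetO-208-hTDP43 transgenes (genotype +/+) on a mixed C57BL/6J X C3HeJ F1 background, and both were raised on doxycycline until 8 to 12 weeks of age. The early disease mice were then taken off doxycycline for 2 weeks, whereas the comparison mice went on receiving it, for 6 weeks per the series design. Of these mice, 3 males and 4 females made up the early group, and 3 males and 3 females the group on doxycycline, by the sex in the deposited design table. Cells had been sorted on CD11b and CD45 after homogenisation and a Percoll step, and the labels do not say whether a library came from 1 mouse or from several.

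TDP-43 is a nuclear RNA-binding protein that moves to the cytoplasm and aggregates in neurons in most patients with amyotrophic lateral sclerosis. In rNLS8 mice the promoter of the neurofilament heavy chain gene drives the transactivator, so that withdrawal of doxycycline releases a cytoplasmic human TDP-43 in neurons and not in microglia. Microglia, the resident macrophages of the central nervous system, hold a homeostatic programme marked by genes such as Tmem119 and P2ry12, and in models of neurodegeneration many of them lower it and raise Apoe, Csf1, Axl and other genes of a disease-associated state. The question was which of these genes had moved in microglia 2 weeks after the transgene was released.

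No date code was shared between the groups. The early libraries carried the date codes 1019, 1102 and 1130, and the 6 libraries on doxycycline all carried 0810. The mice on doxycycline were also followed for 6 weeks rather than 2 from a start at the same range of ages, so that age at collection may differ. Date code, doxycycline, age and transgene therefore differed together, and they cannot be told apart in this comparison. As a measure of the date code, 5 wild-type (WT) libraries of the codes 1019 and 1102 were set against 3 WT libraries of 0810. None of these 8 is in the main comparison. No WT library carried 1130, the code of Early 7 and Early 8, so the WT difference does not cover that code. The WT libraries differed in diet too: of the first 5, 4 had been off doxycycline for 2 weeks and 1 for 6 weeks, and the other 3 had returned to it for 1 week after 6 weeks without it.

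Total expected counts per library, in units of 1e6, ran from 15.4 to 20.02 in early disease and from 14.8 to 17.3 on doxycycline, which overlapped. Genes with any count numbered 15790 to 16600 in early disease and 14160 to 15780 on doxycycline, without overlap (exact permutation test, two-sided p = 0.000583, the smallest that 1716 arrangements allow; 0.00117 adjusted over 4 measures). The deposited TPM columns summed to less than a full library, and the missing share, outside the table, was 3.01 to 5.52% in early disease against 14.4 to 30.8% on doxycycline (same p and adjusted p). That share was 3.76 to 11.4% in the 5 WT libraries of 1019 and 1102 and 13.9 to 15.2% in the 3 of 0810. The deposited values are labelled as without ERCC spike-ins, control RNAs that are added to samples. What the missing share holds is not given, and whether it is made up of spike-ins was not tested. The 12 microglia and macrophage markers all passed the filter on low counts, among them Itgam and Ptprc, which encode the sorted antigens. Itgam was at 1449 to 1773 CPM (counts scaled to a common library size) in early disease and 1058 to 1597 on doxycycline, and Ptprc at 316 to 502 and 338 to 511. Of 12 lists of other cells, 5 had no member that passed the filter (T and NK cells, oligodendrocyte precursors, neurons, mural cells and fibroblasts, erythroid cells). Of the 33 tested members of the other 7 lists none was called by edgeR, and 7 were at an unadjusted p under 0.05, against 21.9% of all genes tested. DESeq2 called 1 border macrophage gene higher and 1 oligodendrocyte gene lower. On log2(TPM + 1) limma called 8 members higher and 0 lower. Their summed levels overlapped between the groups: neutrophil markers at 549 to 788 CPM in early disease and 521 to 847 on doxycycline, of which Csf3r made up 88.8%, monocyte markers at 13.6 to 37.0 and 11.1 to 19.4, border macrophage markers at 293 to 470 and 191 to 362, and T and NK cell markers at 0.177 to 1.70 and 0.0686 to 1.55. At 0 in all 13 libraries were 2 of 16 neutrophil genes, Mpo and Prtn3, which define immature neutrophils. The same held for 7 of 13 T and NK cell genes, among them Cd3e and Cd3g of T cells. The other members of these lists had counts. Mmp9, also on the neutrophil list, reached 6.43 CPM in Early 7 and 18.18 CPM in Control 6.

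**Figure D1:**
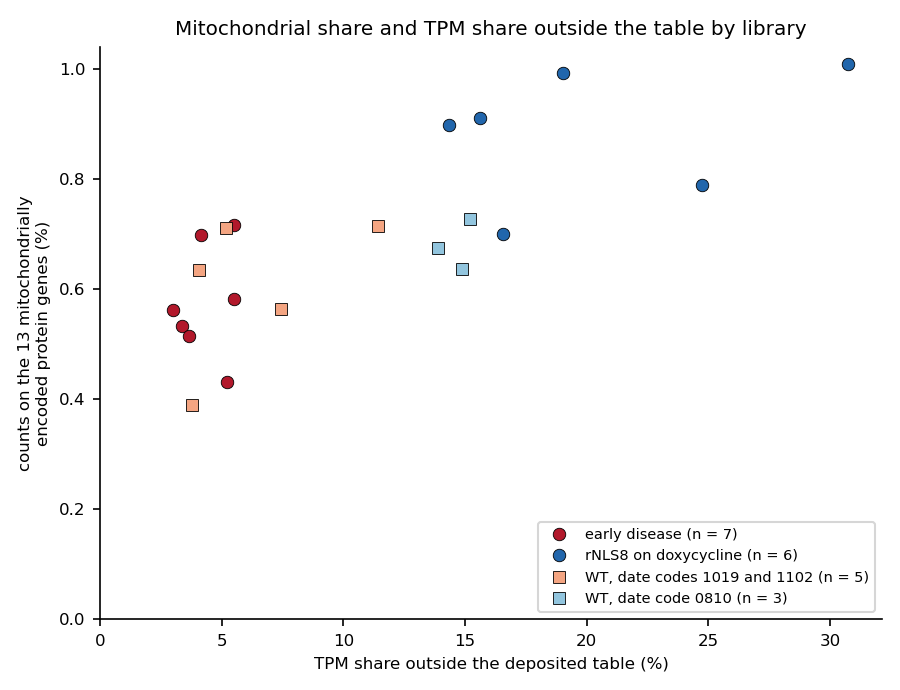
Each point is 1 library; the horizontal axis gives the TPM share outside the deposited table in percent, the vertical axis the percent of counts on the 13 protein genes of the mitochondrial genome, and colours and shapes the groups named in the key. Libraries on doxycycline lie at 14.4 to 30.8% on the horizontal axis and early disease libraries at 3.01 to 5.52%.

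Of 12369 genes tested, 617 (4.99%) differed between early disease and rNLS8 on doxycycline at an adjusted p under 0.05 by edgeR's quasi-likelihood test with Benjamini-Hochberg adjustment. Of these, 296 (2.39% of genes tested) were higher in early disease and 321 (2.6%) were lower, and the CPM values of the groups did not overlap in 370 genes (2.99%). At an unadjusted p under 0.05 by edgeR were 2712 genes (21.9%), the share to set beside such counts in the lists. The clearest group change was a fall of transcripts encoded in mitochondria. Smaller falls in a few homeostatic and chaperone genes stood beside rises of Apoe, Csf1 and several splicing regulators. Most changes were small: the median log2 change was 0.60 among genes called higher and -0.65 among genes called lower. Leaving out single libraries took the number of called genes to 281 without Early 1, 282 without Early 6, 292 without Early 7, 374 without Control 5 and 395 without Early 8. Without Controls 5 and 7, the pair with the highest TPM share outside the table (24.8 and 30.8%), 440 genes were called, 243 higher and 197 lower. On the TPM scale the split was different: limma on log2(TPM + 1) called 4382 of 11827 genes higher and 156 lower, with the median of all genes at 0.35 instead of 0.01. The TPM were used as deposited, without rescaling for the missing share. That share was larger on doxycycline, which by itself lowers TPM there and moves values towards higher in early disease. The limma counts of every list carry this shift, and its part in them was not tested. DESeq2 called 1479 of 22258 (6.64%), 731 higher and 748 lower.

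Most of the called genes differed in the same direction between the WT libraries of different date codes, which also differed in diet. Among the called genes also tested there, 274 of 294 that were higher in early disease (93.2%) were higher in the WT libraries of 1019 and 1102 than in those of 0810, and 287 of 319 lower ones (90.0%) were lower. Over all genes tested the figures were 65.7% of the positive and 62.2% of the negative changes. The median WT difference was 0.38 over the genes called higher and -0.29 over those called lower. At the same threshold 3 of 12772 genes (0.0235%) were called between these WT libraries, Ngp, S100a8 and S100a9, all granule or calcium-binding proteins of neutrophils. With the date code as a term in a fit of all 35 libraries, 2 of 13676 genes (0.0146%) were called between early disease and rNLS8 on doxycycline, Amotl2 higher and Clec1a lower. A difference of differences, in which the WT difference by date code was subtracted, called 2 genes of 13847 (0.0144%), Cd200r1 and Clec1a, both lower. Both fits link 0810 to the other codes only through the 3 WT libraries of 0810, and both pool WT libraries of different diets. The fit of all 35 libraries also takes its spread from late disease and recovery. Whether the fewer calls go with the date code or with less power was not tested. Early disease against the 5 WT libraries of shared date codes called 0 of 12509 genes (0.0%) by edgeR, with 559 at an unadjusted p under 0.05. That comparison uses the same early libraries, among them Early 7 and Early 8, whose code 1130 no WT library shares. For each gene below, the value in early disease minus rNLS8 on doxycycline is followed where it matters by the WT difference by date code and by the estimate with the date term.

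**Figure D2:**
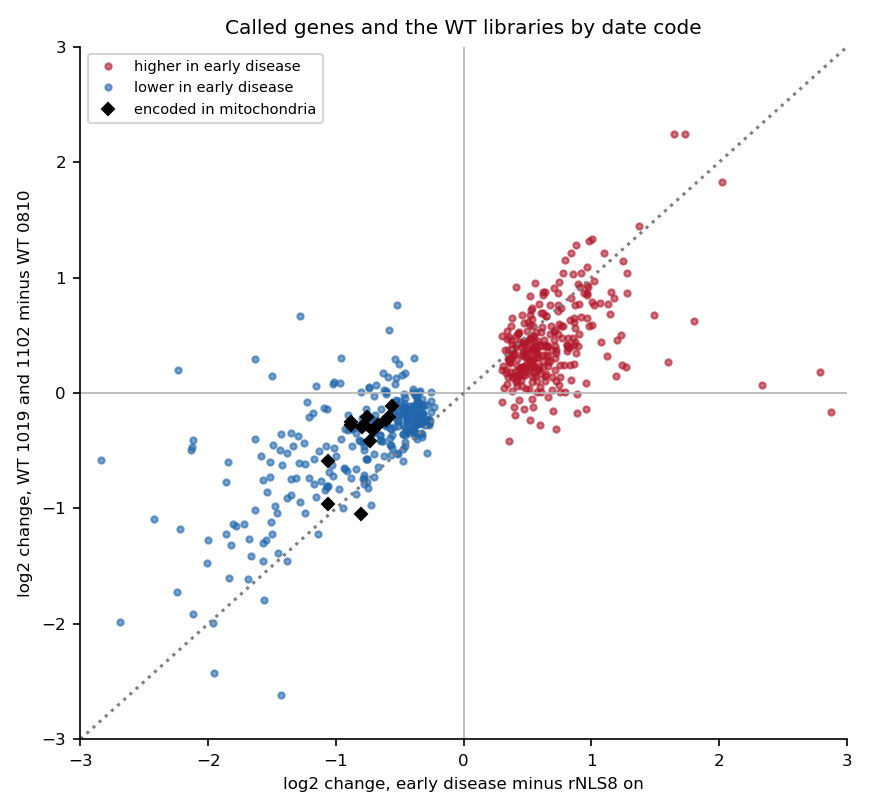
Each of 613 called genes is placed by its log2 change in early disease minus rNLS8 on doxycycline (horizontal axis) and by its log2 difference between WT libraries of date codes 1019 and 1102 and those of 0810 (vertical axis); the dotted line marks equal values, and 10 genes lie beyond the axes. Of the genes called higher 274 of 294 lie above 0 on the vertical axis, and of those called lower 287 of 319 lie below it.

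Transcripts of the mitochondrial genome fell together. This genome encodes 13 subunits of the respiratory chain and its own ribosomal RNAs. Of the 13 protein genes, all tested, 11 fell and none rose, with a median log2 change of -0.76 against 0.01 over all genes tested, and the groups did not overlap in 7. On log2(TPM + 1) limma called 7 lower and 0 higher, with a median of -0.41. The CPM of mt-Co1, a catalytic subunit of cytochrome c oxidase, was 953, 1165 and 1486 in early disease (lowest, median, highest) and 1715, 2014 and 2246 on doxycycline. Every early library lay below every library on doxycycline, and the log2 change was -0.71 (SE 0.11; adjusted p = 0.00584). For mt-Atp6, an ATP synthase subunit, the CPM was 418, 605 and 828 against 863, 1102 and 1335 (log2 change -0.88, SE 0.14; adjusted p = 0.00642). The complex I subunit mt-Nd4 was at 237, 308 and 412 CPM against 479, 560 and 632 (log2 change -0.76, SE 0.12; adjusted p = 0.00643). The groups did not overlap for either gene. mt-Co2, the other catalytic core subunit of the oxidase, fell by 0.80 on the log2 scale (SE 0.13; adjusted p = 0.00715), again without overlap. The large ribosomal RNA mt-Rnr2 fell by 1.06 (SE 0.17; adjusted p = 0.0064), from a median of 1568 to one of 834 CPM. The remaining protein genes mt-Co3 and mt-Nd4l had values of -0.52 (SE 0.23; adjusted p = 0.2) and -1.11 (SE 0.69; adjusted p = 0.372).

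The count of 11 was the same without Controls 5 and 7 and ran from 9 to 12 when single libraries were left out. Counts on these 13 genes made up 0.431 to 0.716% of all counts in early disease and 0.6995 to 1.01% on doxycycline. In the WT libraries the share was 0.389 to 0.714% at date codes 1019 and 1102 and 0.637 to 0.727% at 0810. The median WT difference by date code over the 13 genes was -0.25, smaller than the -0.76 of the main comparison. With the date term the median was -0.66, and mt-Co1, mt-Atp6 and mt-Nd4 were at -0.57, -0.74 and -0.68, none of them called (adjusted p = 1.0 for each). With the missing TPM share as a covariate the median was -0.64, and no gene was called; the part of that share in the fall was not tested further. Against the 5 WT libraries of shared date codes the median was -0.20, with mt-Co1 at -0.09 and mt-Atp6 at -0.23. Single members differed: mt-Nd3, at -0.80 in the main comparison, was at -1.045 between WT libraries by date code. It was at -0.04 with the date term and at 0.39 against those 5. The WT difference was 0.07 for mt-Co3 and 0.70 for mt-Nd4l. The ribosomal RNA mt-Rnr2 was at -0.59 between WT libraries, -0.65 with the date term and -0.16 against those 5. By date code of the early libraries, mt-Co1 was at -0.77 for those of 1019, -0.52 for those of 1102 and -0.94 for those of 1130, each against all 6 libraries on doxycycline. The respiratory chain genes of the nucleus did not show a fall of this size, with a median of -0.11 over the 78 tested. None was called by edgeR, and 12 were at an unadjusted p under 0.05, against 21.9% of all genes tested. The lowest adjusted p by edgeR was 0.0754 for Uqcrfs1, a complex III subunit, at -0.32 (SE 0.10). DESeq2 called 1 lower. The nuclear genome holds near-identical copies of mitochondrial sequence, and the deposited values share such reads by estimation.

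**Figure D3:**
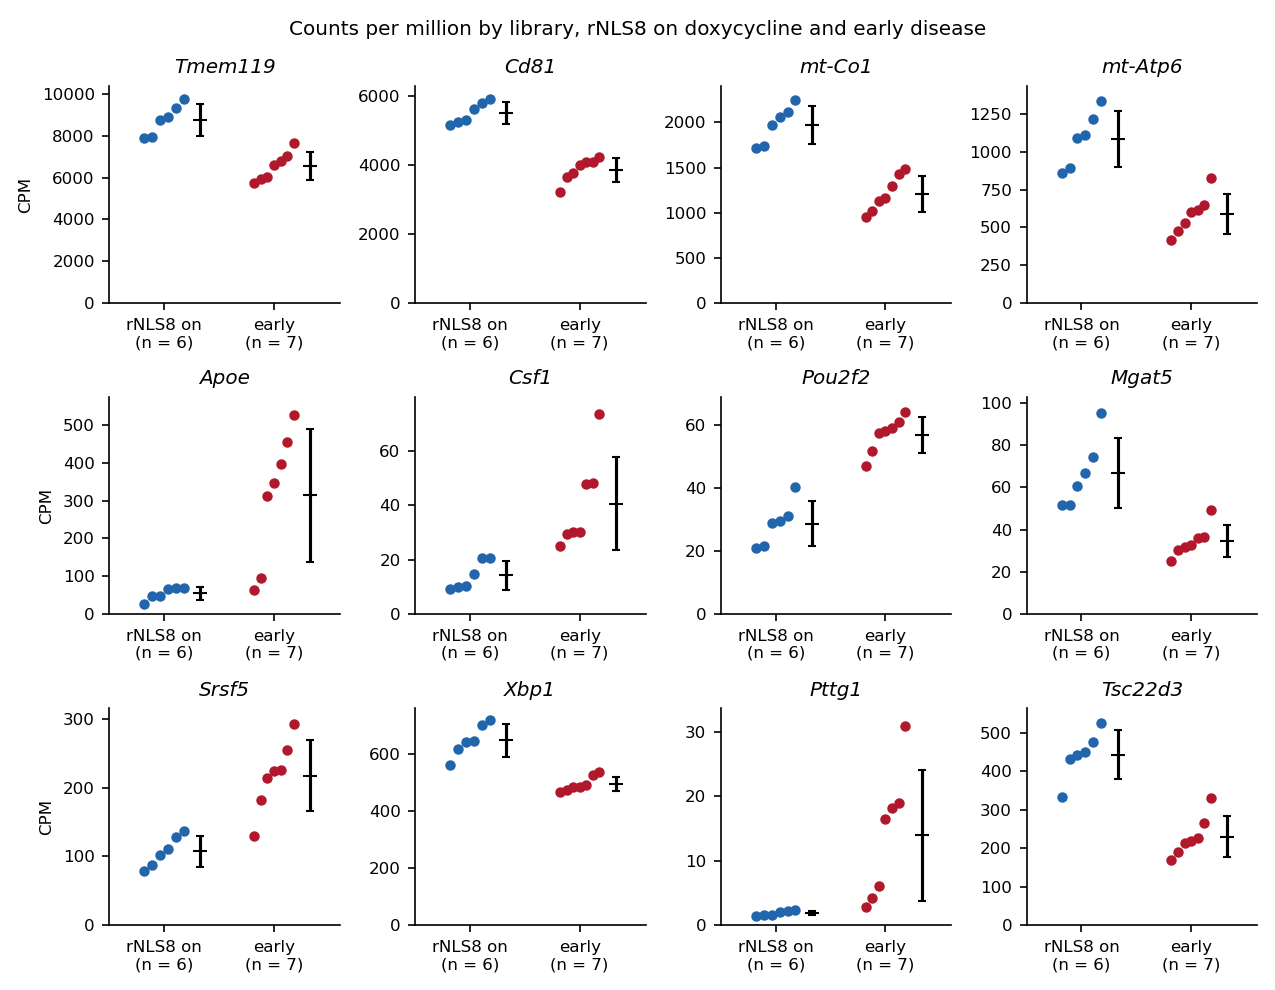
CPM of 12 genes in each library of rNLS8 on doxycycline (blue, n = 6) and early disease (red, n = 7), sorted within a group; bars give the mean and SD, and every vertical axis starts at 0. The groups do not overlap for Tmem119, Cd81, mt-Co1, mt-Atp6, Csf1, Pou2f2, Mgat5, Xbp1, Pttg1 and Tsc22d3, and overlap for Apoe and Srsf5.

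Among 30 homeostatic microglial genes, 6 fell and 1 rose, with a median of -0.10, but on log2(TPM + 1), where the median of all genes was 0.35, limma called 14 higher and 0 lower with a list median of 0.27. Tmem119, a transmembrane protein used to tell microglia from other macrophages, was at 5759, 6627 and 7652 CPM in early disease (lowest, median, highest) and at 7890, 8826 and 9787 on doxycycline. All early libraries were lower than all libraries on doxycycline, and the log2 change was -0.43 (SE 0.07; adjusted p = 0.00642). Slc2a5, a fructose transporter, was at 810, 997 and 1432 CPM against 1226, 1475 and 1910, with overlap between the groups (log2 change -0.57, SE 0.13; adjusted p = 0.0211). Siglech, a sialic acid-binding receptor, was the member that rose, from 1181, 1382 and 1513 CPM to 1451, 1658 and 2088 (log2 change 0.37, SE 0.09; adjusted p = 0.0245). Falls were also called for Lpcat2 (-0.25) and Gpr34 (-0.53), an acyltransferase and a lysophospholipid receptor, both with overlapping groups. Lpcat2 and Gpr34 were called in 3 each of the 13 fits that left out 1 library and Siglech in 10, whereas Tmem119 and Slc2a5 were called in all 13. Without Controls 5 and 7, 2 members fell and 0 rose.

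P2ry12, the ADP receptor of resting microglia, was at 5743, 7380 and 9374 CPM in early disease and 7691, 9002 and 9351 on doxycycline, and its log2 change of -0.23 (SE 0.10) did not pass the test (adjusted p = 0.175). Cx3cr1, the fractalkine receptor, was at -0.12 (SE 0.06; adjusted p = 0.262). Csf1r, the receptor on which microglial survival depends, was at 0.01 (SE 0.09; adjusted p = 0.96). Among the markers of microglia and macrophages, C1qa, a chain of the complement component C1q, also fell, from 4676, 5202 and 6362 CPM to 3685, 4041 and 4614 without overlap (log2 change -0.35, SE 0.08; adjusted p = 0.0215; adjusted p = 0.0526 without Early 6). Between WT libraries by date code, Tmem119 differed by -0.22, Slc2a5 by -0.45 and Siglech by 0.58. With the date term the values were -0.18 for Tmem119, 0.03 for Slc2a5 and -0.18 for Siglech, so the last 2 changed sign. In bulk samples, fewer cells that express a gene and less of its RNA per cell cannot be told apart.

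**Figure D4:**
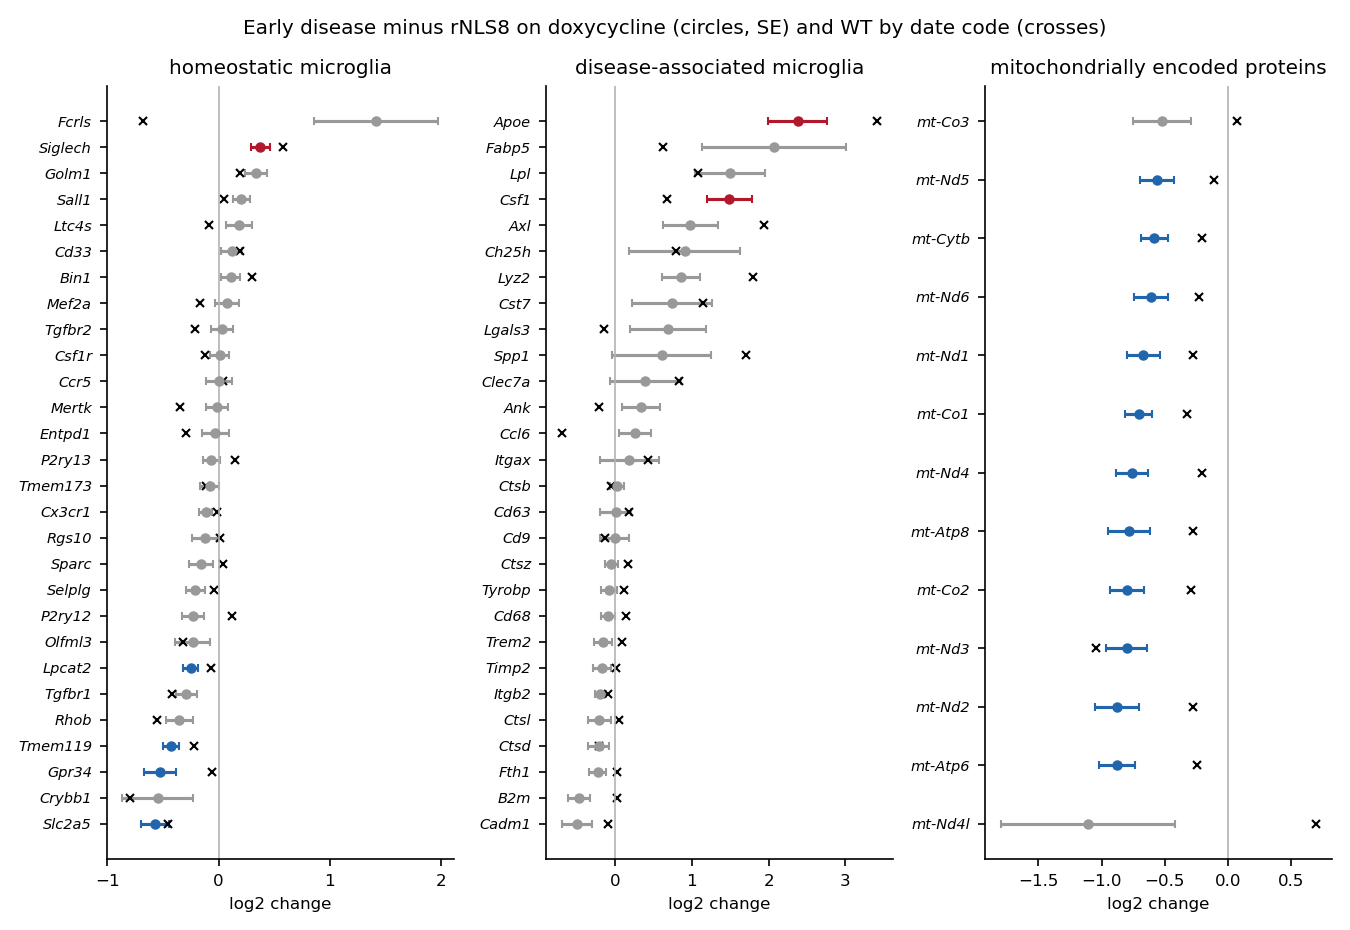
Log2 change in early disease minus rNLS8 on doxycycline of tested genes of 3 lists (circles with SE; red, called higher; blue, called lower; grey, not called) and the difference between WT libraries by date code (crosses). All 13 mitochondrial genes lie below 0, with 11 called, against 2 called higher of 28 disease-associated genes.

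Of 28 tested genes of the disease-associated state, 2 rose and none fell, with a median of 0.11. The median of the list was 0.155 between WT libraries by date code. It was -0.19 with the date term and -0.11 against the 5 WT libraries of shared date codes. Apoe, the apolipoprotein that carries lipids out of cells, was at 63.7, 347 and 528 CPM in early disease and 26.7, 56.9 and 69.9 on doxycycline. The early libraries were spread widely: 5 of them lay at 313 CPM or more, and Early 5 and Early 6, both of date code 1102, at 63.7 and 94.7, of which the first was within the range on doxycycline. The log2 change was 2.38 (SE 0.39; adjusted p = 0.00643). WT libraries differed more by date code, by 3.41 on the same scale, with 410 to 978 counts in the 3 of 0810 and 3387 to 17950 in the 5 others. With the date term Apoe was at -1.05, and against the 5 WT libraries of shared date codes at -0.62.

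Csf1, the growth factor that acts through Csf1r, was at 25.1, 30.3 and 73.6 CPM in early disease and 9.19, 12.6 and 20.8 on doxycycline. No early library was as low as the highest library on doxycycline, and the log2 change was 1.49 (SE 0.29; adjusted p = 0.0125). Its WT difference by date code was 0.67, the estimate with the date term 1.01 (adjusted p = 1.0), and the value against the 5 WT libraries 0.73. Among members that did not pass the test, Lpl, a lipoprotein lipase, was at 1.5 (SE 0.46; adjusted p = 0.0703), the lysozyme Lyz2 at 0.86 (SE 0.25; adjusted p = 0.0585), the receptor tyrosine kinase Axl at 0.98 (SE 0.36; adjusted p = 0.127) and Trem2, a lipid-sensing receptor of the same state, at -0.15 (SE 0.12; adjusted p = 0.489). Between WT libraries by date code Lpl, Lyz2 and Axl differed by 1.09, 1.80 and 1.94. With the date term they were at 0.53, -1.03 and -0.75. In the list of lipid efflux and storage, 1 of 17 rose, Apoe, and 1 fell, Soat1, which esterifies cholesterol (-0.61, SE 0.14; adjusted p = 0.0214; not called without Control 5). Of 26 genes of cholesterol synthesis, 2 fell and none rose, Nsdhl (-0.58, SE 0.15; adjusted p = 0.04) and Ebp (-0.36, SE 0.10; adjusted p = 0.0488), sterol-processing enzymes that were called in 3 and 2 of the 13 fits without 1 library.

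Genes of the cell cycle and of the interferon response lay mostly on the positive side, but few passed the test. Short promoter windows of genes in these lists are shown because members of a list share sequence there. Windows come from the RefSeq promoters of the build GRCm38.p6, 250 bases before to 50 after each start, and read 5′ to 3′ on the gene's strand, with the motif in capitals. The motifs searched on both strands were TTTNGCGC, similar to the site of E2F factors, TTTGAA, similar to the cell cycle homology region of mitotic genes, and a pair of GAAA with 2 free bases between them, similar to the interferon-stimulated response element.
Mcm6, upstream: gcgtatgctTTTGGCGCgaaaagtgc
Mcm6, near the start: ttggacgggTTTGGCGCgaagtagct
Mki67: gcgccagaaTTTGAAccgccgttt
Prc1: ctggctcggTTTGAAttccgcggg
Stat2: gcaccctggTTTCAGTTTCctttcccta
The Mcm6 windows are at chr1:128359799-128359824 and chr1:128359736-128359761, with the motif at positions -110 and -47 from the start. The first of these motifs overlaps another match on the opposite strand at position -106. The Mki67 window is at chr7:135716481-135716504, that of Prc1 at chr7:80294437-80294460 and that of Stat2, matched on the opposite strand, at chr10:128270267-128270294. The E2F-like letters were in the promoters of 10 of 28 genes of DNA replication and S phase (35.7%), against 1.57% of all 27025 genes with a promoter. The CHR-like letters were in 22 of 30 mitosis genes (73.3%) against 20.2%, and the ISRE-like letters in 18 of 28 interferon genes (64.3%) against 3.99%. A match is a description of sequence and not evidence of binding.

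Of 28 tested genes of DNA replication and S phase, Mcm6 and Chaf1b were called higher and none lower; Chaf1b passed the filter on low counts through the early libraries alone and had to differ. Mcm6, a subunit of the replicative helicase, was at 20.2, 26.0 and 44.3 CPM in early disease and 13.6, 15.8 and 23.03 on doxycycline, with overlap (log2 change 0.72, SE 0.18; adjusted p = 0.0312; called in 7 of the 13 fits without 1 library). Chaf1b, a histone chaperone subunit that deposits histones on new DNA, had 15, 37 and 40 counts per library in early disease (lowest, median, highest; 212 in all). It had 2 counts on doxycycline, both in Control 6, and 0 in the other 5 libraries. The ratio of the summed counts per library size was 82.4 (95% exact interval 22.5 to 685, counting error only). WT libraries had 0 to 16 counts at 0810 and 1 to 15 at 1019 and 1102.

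None of 32 mitosis genes was called by edgeR, and 4 were at an unadjusted p under 0.05, against 21.9% of all genes tested. DESeq2 and limma on log2(TPM + 1) called 4 higher each. By edgeR a positive value was found in 31, and the median was 1.07, against 0.01 over all genes. Mki67, the proliferation marker, was at 1.12, 3.41 and 8.92 CPM in early disease and 0.0, 0.923 and 2.49 on doxycycline, with a log2 change of 2.19 and an SE of 0.84 (adjusted p = 0.143). Prc1, which bundles microtubules of the dividing cell, was at 2.24 (SE 0.82; adjusted p = 0.127). The groups overlapped in all 32 genes. The WT difference by date code had a median of 0.71 over the list. With the date term the list median was 0.43, and against the 5 WT libraries of shared date codes 0.56. With the missing TPM share as a covariate it turned to -0.83. The WT difference was 4.00 for Mki67 and -0.07 for Prc1, which with the date term were at -1.64 and 2.33. Pttg1, the securin that restrains the separation of sister chromatids, is not in the list and was among the called genes: it was at 2.83, 16.6 and 31.0 CPM in early disease and 1.45, 1.83 and 2.30 on doxycycline, without overlap (log2 change 2.79, SE 0.43; adjusted p = 0.00603). The raw counts of Pttg1 in the 3 WT libraries of 0810 were 192, 25 and 539, as wide a range as in early disease, and against the 5 WT libraries of shared date codes it was at -0.31. Its WT difference by date code was 0.18, and its edgeR estimate with the date term was 2.80, not called there (adjusted p = 0.935).

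Of 22 tested p53 targets and apoptosis genes, 2 rose and none fell. They were Bid (0.71, SE 0.12; adjusted p = 0.00828) and Bax (0.40, SE 0.11; adjusted p = 0.0446), which promote release of cytochrome c from mitochondria. Bid was at 58.4, 85.5 and 99.6 CPM against 39.8, 47.7 and 61.9, with overlap, and Bax at 25.1, 28.2 and 32.6 against 18.9, 22.2 and 24.5, without. Bax was called in 2 of the 13 fits without 1 library. Both differed by date code between WT libraries, by 0.46 and 0.40.

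Of 36 interferon response genes, 1 rose, Stat2, and none fell, with 30 positive values and a median of 0.51. Over all genes tested 50.9% of values were positive and 2.39% of genes were called higher. Stat2, the transcription factor that carries type I interferon signals to the nucleus, was at 26.1, 43.0 and 54.5 CPM in early disease and 13.8, 29.2 and 30.3 on doxycycline. The groups overlapped, and the log2 change was 0.76 (SE 0.20; adjusted p = 0.0417; called in 4 of the 13 fits without 1 library, and not without Controls 5 and 7). The antiviral GTPase Mx2 and the factor Irf7 were at 2.82 (SE 0.81; adjusted p = 0.0587) and 1.44 (SE 0.50; adjusted p = 0.107). Between WT libraries by date code the median of the list was 0.55, close to that of the main comparison, and with the date term it was 0.24. No cytokine, chemokine or NF-kB target of 24 was called by edgeR. At an unadjusted p under 0.05 by edgeR were 10, against 21.9% of all genes tested. DESeq2 called 5 of 28 higher. On log2(TPM + 1) limma called 14 of 23 higher, against 4382 of 11827 over all genes. By edgeR the median was 0.36, and 0.41 between WT libraries by date code. Relb, an NF-kB subunit, was at 0.72 (SE 0.22; adjusted p = 0.0733) and Nfkbiz, a nuclear regulator of NF-kB, at 1.18 (SE 0.36; adjusted p = 0.0734).

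Of 39 genes of splicing, which are RNA-binding proteins, the class to which TDP-43 belongs, together with splicing kinases, 7 rose and 2 fell, with a median of 0.09. Srsf5, a serine/arginine-rich splicing factor, was at 129, 225 and 293 CPM in early disease and 79.0, 107 and 137 on doxycycline. Only the lowest early library reached into the range on doxycycline, and the log2 change was 1.02 (SE 0.17; adjusted p = 0.00749). Hnrnpl, a splicing repressor, was at 122, 151 and 156 CPM against 91.5, 102 and 123, with overlap (0.49, SE 0.09; adjusted p = 0.00863). The other risers were the cold-inducible proteins Cirbp (0.87) and Rbm3 (0.91), the splicing kinases Clk1 (0.52) and Clk4 (0.64), and Ewsr1 (0.46). Luc7l2, a component of the U1 particle, fell from 23.7, 32.6 and 41.8 CPM to 11.5, 19.4 and 22.1 without overlap (-0.80, SE 0.17; adjusted p = 0.0169). Hnrnpc, which coats nascent transcripts, fell by 0.44 (SE 0.11; adjusted p = 0.0285), also without overlap, and was called in 9 of the 13 fits without 1 library. Hnrnpdl, a related RNA-binding protein outside the list, rose by 0.79 (SE 0.13; adjusted p = 0.00715).

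The number of splicing genes called depended on the libraries: without Controls 5 and 7, 2 rose and 0 fell, and the fits without 1 library called 2 to 9 higher. WT libraries differed by date code by 0.97 in Srsf5, 0.92 in Rbm3, 0.87 in Clk4 and 1.15 in Hnrnpdl, but by 0.03 in Hnrnpl and 0.01 in Luc7l2. With the date term Srsf5 was at 0.28, Hnrnpl at 0.47, Luc7l2 at -0.54 and Hnrnpdl at -0.16. The mouse gene Tardbp itself was at 42.7, 49.1 and 59.0 CPM in early disease and 35.04, 44.9 and 50.9 on doxycycline (0.23, SE 0.11; adjusted p = 0.259). It says nothing of the transgene, which is human and driven in neurons. Nefh, whose promoter drives the transactivator, did not pass the filter on low counts. Of 26 further genes of amyotrophic lateral sclerosis and frontotemporal dementia, none was called by edgeR. At an unadjusted p under 0.05 were 5, against 21.9% of all genes tested. The smallest adjusted p by edgeR was 0.0629 for the dynactin subunit Dctn1 (0.58, SE 0.17). DESeq2 called 1 higher and limma on log2(TPM + 1) 11.

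Changes in genes of protein folding and stress were mostly small. Of 19 heat shock chaperones 2 fell and none rose, with a median of -0.24. On log2(TPM + 1) limma called 3 higher and 0 lower with a median of 0.15, below the 0.35 of all genes on that scale. By edgeR the 2 were Chordc1, a co-chaperone (-0.66, SE 0.14; adjusted p = 0.0153), and Dnaja1, a co-chaperone of the same system (-0.48, SE 0.12; adjusted p = 0.0312; called in 6 of the 13 fits without 1 library). Of 23 genes of the unfolded protein and integrated stress response, 3 fell and 1 rose. At an unadjusted p under 0.05 by edgeR were 15, against 21.9% of all genes tested. On log2(TPM + 1) limma called 8 higher and 0 lower with a median of 0.265, also below that of all genes. Xbp1, a transcription factor that restores folding capacity of the endoplasmic reticulum, fell from 564, 645 and 721 CPM to 469, 486 and 537 without overlap (-0.40, SE 0.07; adjusted p = 0.00813). Atf4, the transcription factor of the integrated stress response, rose from 40.6, 59.9 and 74.6 CPM to 77.7, 87.5 and 101, also without overlap (0.57, SE 0.13; adjusted p = 0.0209; adjusted p = 0.0539 without Early 1). The chaperones Pdia4 and Dnajb9 fell by 0.33 and 0.56 and were called in 5 of the 13 fits each. With the date term Xbp1 was at -0.18 and Atf4 at 0.35.

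Few genes of antigen presentation were called. Of 20 MHC class I genes Tapbp fell, the tapasin that loads peptides (-0.33, SE 0.07; adjusted p = 0.0177), and of 11 MHC class II genes none was called by edgeR (4 at an unadjusted p under 0.05) or DESeq2 and 1 was called higher by limma on log2(TPM + 1), with Cd74, the invariant chain, at 0.83 (SE 0.34; adjusted p = 0.169). Of 14 complement genes only C1qa was called. Of 86 genes with ribosomal protein symbols, 2 fell, Rpl21 and Rps12l1, the latter annotated as a processed pseudogene. Both share reads with near-identical copies, which makes their values uncertain, and neither was called without Controls 5 and 7. The median was -0.13. On log2(TPM + 1) limma called 38 higher and 1 lower with a median of 0.261, below the 0.35 of all genes on that scale. Of 15 glucocorticoid targets Tsc22d3, which encodes the glucocorticoid-induced leucine zipper, fell from 333, 446 and 525 CPM to 168, 219 and 330 without overlap (-0.94, SE 0.14; adjusted p = 0.00584), and the metallothionein Mt1 rose by 0.49 (SE 0.13; adjusted p = 0.041; called in 2 of the 13 fits). The WT difference of Tsc22d3 by date code was -0.999, and its value with the date term -0.00232. Of 15 TGF-beta genes Ski, a repressor of SMAD factors, rose from 368, 401 and 470 CPM to 489, 554 and 700 without overlap (0.47, SE 0.09; adjusted p = 0.00966), and the WT difference by date code was of the other sign at -0.14. Of 22 genes of glycolysis and hypoxia P4ha1, a collagen prolyl hydroxylase, fell by 0.58 (SE 0.11; adjusted p = 0.0134). Akap9, a scaffold of the centrosome and Golgi, fell from 45.8, 74.4 and 79.9 CPM to 36.2, 45.8 and 49.7 (-0.70, SE 0.12; adjusted p = 0.00749), with overlap through Control 7, the lowest library on doxycycline. By edgeR none of the genes of the circadian clock, autophagy, NADPH oxidase, the immediate early response, or antioxidant and iron handling was called. At an unadjusted p under 0.05 by edgeR were 4 of 17, 5 of 25, 2 of 7, 2 of 22 and 4 of 21, in this order, against 21.9% of all genes tested. DESeq2 called 1 clock gene higher and 2 lower, 2 autophagy genes lower, and 1 antioxidant or iron gene higher and 1 lower. On log2(TPM + 1) limma called 4 of 16, 15 of 25, 6 of 7, 7 of 21 and 11 of 20 genes of these lists higher and 0 lower. Over all genes it called 4382 of 11827 higher.

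**Figure D5:**
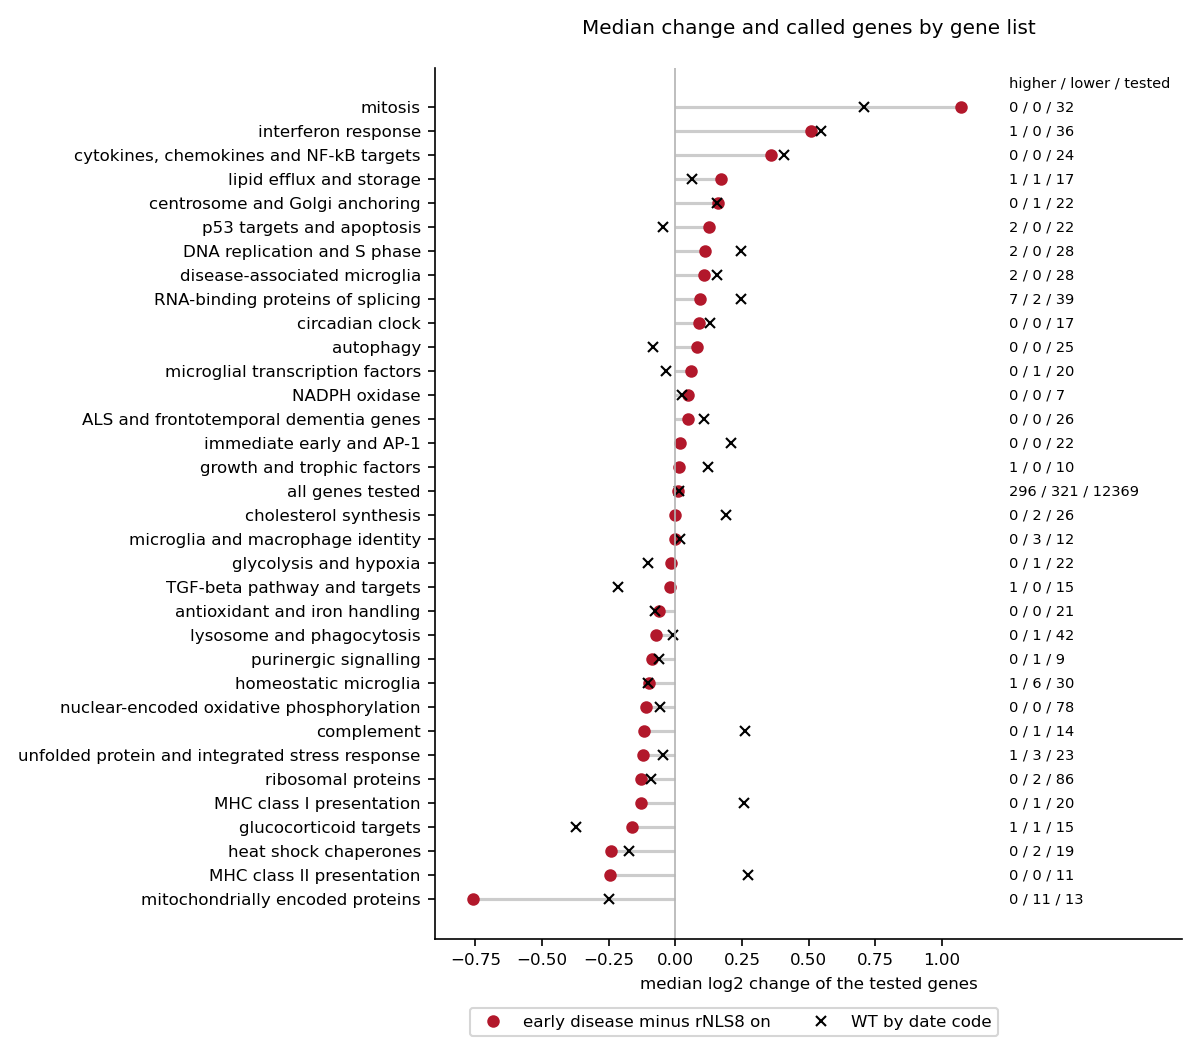
Median log2 change of the tested genes of each list in early disease minus rNLS8 on doxycycline (red circles) and between WT libraries of date codes 1019 and 1102 and of 0810 (crosses), with the numbers called higher, called lower and tested at the right. The lowest median is that of mitochondrially encoded proteins at -0.76 and the highest that of mitosis genes at 1.07, of which none was called by edgeR.

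The genes with the smallest adjusted p and no overlap between groups, predicted genes left aside, were of several functions. Among those that rose, Pou2f2 (chr7:25087344-25179726), a POU-domain transcription factor of B cells and macrophages, was at 47.1, 58.2 and 64.2 CPM in early disease and 20.96, 29.1 and 40.4 on doxycycline (log2 change 0.98, SE 0.12; adjusted p = 0.00317). Cdk16, a cyclin-dependent kinase, was at 25.2, 34.0 and 46.8 CPM against 13.96, 16.7 and 19.5 (1.01, SE 0.14; adjusted p = 0.00325). Mfsd12, a lysosomal cystine transporter, was at 65.8, 90.1 and 111 CPM against 39.8, 46.6 and 54.7 (0.87, SE 0.12; adjusted p = 0.00419). In each of the 3, every early library lay above every library on doxycycline. Ptpn6, the phosphatase SHP-1 that dampens immune receptor signals, rose less, from 320, 359 and 387 CPM to 441, 513 and 571 (0.52, SE 0.08; adjusted p = 0.00584). Icosl, a costimulatory ligand, rose by 0.66 (SE 0.11), Rgl2, an exchange factor for Ral, by 0.97 (SE 0.15), Ccnl2, a cyclin linked to splicing, by 0.86 (SE 0.14) and the microtubule-associated Map7d1 by 0.63 (SE 0.10), all at adjusted p = 0.00643 or smaller. Bnip2 was at 0.55 (SE 0.09), and Zswim8, a ubiquitin ligase adaptor that acts in microRNA decay, at 0.80 (SE 0.13), both at adjusted p = 0.00657.

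These genes did not share 1 relation to the date code. The WT difference was larger than the main change for Pou2f2 (1.32) and Ptpn6 (0.59), and with the date term they were at -0.14 and -0.02. It was 0.59 for Cdk16 and 0.42 for Mfsd12, whose estimates with the date term were 0.57 and 0.36. For Zswim8 the WT difference was 0.01 and the estimate with the date term 0.94, although not called there (adjusted p = 1.0).

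Among the genes that fell, Mgat5 (chr1:127205015-127488336, mm10), a glycosyltransferase that branches N-glycans, was at 25.3, 32.6 and 49.2 CPM in early disease and 51.5, 63.6 and 95.3 on doxycycline (-0.97, SE 0.12; adjusted p = 0.00317). Cd81, a tetraspanin abundant in microglia, was at 3229, 4013 and 4226 CPM against 5175, 5473 and 5922 (-0.51, SE 0.07; adjusted p = 0.00325). Both lay lower in every early library than in any library on doxycycline. Rhoh, a GTPase of blood cells without GTPase activity, fell from 282, 309 and 368 CPM to 171, 198 and 245 (-0.66, SE 0.10; adjusted p = 0.00584). Fer, a cytoplasmic tyrosine kinase, fell by 0.76 (SE 0.11; adjusted p = 0.00509), N4bp2l2 by 0.72 (SE 0.10; adjusted p = 0.00325) and Nfia, a nuclear factor I transcription factor, by 0.70 (SE 0.11; adjusted p = 0.00643). Mgat5 differed by 0.08 between WT libraries by date code and was at -0.87 with the date term, at -0.86 with the missing TPM share as a covariate and at -0.60 against the 5 WT libraries of shared date codes. Cd81 was at -0.24, -0.31, -0.53 and -0.34 in the same order. None of these values passed its test (adjusted p of 0.279 or more for Mgat5 and 0.272 or more for Cd81). By date code of the early libraries Mgat5 was at -0.93 for 1019, -0.85 for 1102 and -1.19 for 1130, and by sex at -1.02 in females and -0.90 in males.

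The genes called in the fits that account for date code, together with diet, were named after their values were seen. Amotl2, an angiomotin-like scaffold called with the date term and in the main comparison, had 6 to 65 counts in each early library and 0 in all 6 libraries on doxycycline, but also 0 to 74 in the 3 WT libraries of 0810. In the main comparison it passed the filter on low counts through the early libraries alone and had to differ. Clec1a, a C-type lectin receptor, was at 0.305 to 1.72 CPM in early disease and 0.459 to 4.16 on doxycycline, with a log2 change of -1.68 that was not called (SE 0.53; adjusted p = 0.08). Cd200r1, the inhibitory receptor for CD200, was at 20.1, 27.7 and 31.4 CPM against 29.2, 38.9 and 49.2 (-0.52, SE 0.13; adjusted p = 0.0357), and the WT libraries of 1019 and 1102 were higher than those of 0810 by 0.76.

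Counts also shifted between classes of annotation, which were compared after the values were seen. Models of the GENCODE class TEC, unspliced transcripts that await experimental proof, fell in 47 of 333 tested (14.1%) and rose in none, with a median of -0.98. Of these, 230 lie inside the span of a protein-coding gene, where 37 (16.1%) fell with a median of -1.10, and 103 lie outside, where 10 (9.71%) fell with a median of -0.70. Among 44 sense intronic models 3 fell (6.82%), with a median of -0.87, and among 223 lincRNAs 15 fell (6.73%) and 1 rose. Protein-coding genes, by contrast, were called higher somewhat more often than lower, 290 (2.65%) against 223 (2.03%) of 10961, with a median of 0.03. The gene with the smallest adjusted p of the class was C130089K02Rik, within the span of Maml3 at chr3:52057285-52064244. It was at 13.3, 21.6 and 23.3 CPM in early disease and 42.8, 56.5 and 91.9 on doxycycline, without overlap (-1.66, SE 0.19; adjusted p = 0.00265). A130071D04Rik, within Ptprc, fell by 1.44 (SE 0.24; adjusted p = 0.00715), whereas Ptprc itself was at -0.01. Between WT libraries by date code the TEC median was -0.66 and with the date term -0.21. The libraries do not mark the strand, so reads of such a model and of unspliced RNA of its host gene cannot be told apart.

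The change differed between males and females in 7 genes of 12369 (0.0566%) by edgeR's test of the interaction of sex and group. In separate fits 5 genes were called in females and 15 in males, with values of 1 sign for the following genes: mt-Co1 at -0.72 in females and -0.68 in males, Tmem119 at -0.46 and -0.39, Csf1 at 1.78 and 1.17, and Apoe at 2.75 and 1.954. The difference between sexes was not called for any of these 4.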

How the data were processed

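RNA sequencing of sorted spinal cord microglia was taken from deposited tables. The authors deposited expected counts (estimated fragments per gene, not normalized) and TPM for 45706 genes; RSEM, DESeq2 and the build mm10 are named in the submitters' processing notes, with no versions. Effective alignment counts, date codes and sex came from the deposited design table. Libraries were made with SMART-Seq and Nextera XT kits, per the labels' protocols, which mark no strand.

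Expected counts were rounded and tested with edgeR 4.0.16 (R 4.3.3; TMM, filterByExpr by group, quasi-likelihood F test, sex as a term), over 13 libraries; the WT libraries by date code were tested alike. A gene was called at an adjusted p under 0.05. SEs come from the F statistic. CPM are scaled to TMM library sizes. Library measures had exact permutation tests. P-values measure the spread between these samples. The sex in the sample labels went against Xist and Ddx3y in 2 libraries and that of the design table in 0, so the latter was used. Replicates differed by more than counting noise. The edgeR script was tested on simulated data. Alternatives were DESeq2 1.42.0, limma 3.58.1 on log2 of TPM plus 1 or 0.1 (genes with TPM of at least 1 in 6 libraries), other filters and scalings, date, TPM share and replicate terms, and left-out libraries.

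Genes were named by rule: the 12 higher and 12 lower with the smallest adjusted p, at least 10 CPM, no overlap and a symbol that is not of a predicted gene or pseudogene; up to 4 called members of each of 45 lists, or 2 members where none was called; and a few fixed genes. Other genes in the text, such as Lpl, Axl, Mx2, Irf7, Trem2 and mt-Co3, were named after their values were seen. Members and lists were chosen with earlier results of these data known. Symbols matched 45143 genes by identifier, and coordinates are GENCODE M21 (mm10). Human transgene expression was not analysed here. Values of some list members are not reported here.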

Additional observations from a re-analysis of the deposited data

Results flagged for a closer look

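In 138 groups of 6 or 7 libraries, 6 had a highest or lowest library that stood apart by Dixon's test at the 95% level; chance flags about 1 in 20 groups. On doxycycline, Control 7 was the lowest library for Nfia, at 30.97 CPM (the next was at 42.08), and for Akap9, at 45.78 CPM (the next at 70.43). Control 4 was the lowest for Rps12l1, at 1.451 CPM (the next at 4.824), Control 5 the highest for Pdia4, at 559.1 CPM (the next at 473.8), and Control 6 the highest for Chaf1b, at 0.1237 CPM with the others at 0. In early disease, Early 3 was the lowest for Zswim8, at 22.89 CPM (the next at 26.74).

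By edgeR's interaction test, 7 genes changed differently in males and females. The male change minus the female change was -4.29 on the log2 scale for Gm15459 (0.23 in females and -4.06 in males), -5.96 for Gm26825 (0.08 and -5.88), 9.13 for the clock gene Per2 (-0.02 and 9.06; at 0 CPM in all 3 males on doxycycline) and -4.55 for the pseudogene Rpl3-ps1 (3.79 and -0.76). It was -4.25 for Oscp1 (3.63 and -0.62), -3.81 for the sphingosine phosphate receptor S1pr1 (2.20 and -1.62) and -16.04 for the metalloproteinase Mmp9 (8.51 and -7.57; at 0 CPM in all 3 females on doxycycline and in 2 of 3 early males). Fitted values of Per2 and Mmp9 rest on groups at or near 0 counts, depend on the prior count and are no measure of size. Low counts of Gm15459 and Gm26825 were not limited to males in the series. The females Late 2, Late 3 and Control 14 had 63, 153 and 150 counts of Gm15459, against 3026 to 6589 in the 6 libraries on doxycycline. Of Gm26825 these females had 238, 109 and 233. Whether the difference in these 2 genes goes with sex was not tested further. With the sex given in the sample labels instead, 2 genes were called.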

How the results depend on the processing

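The number of called genes (617) was 1479 by DESeq2, 4538 and 4398 by limma on log2 TPM plus 1 and plus 0.1, and 281 to 643 with single libraries left out. It was 2 with the date term, 2 in the difference of differences, 0 against the 5 WT libraries (559 at an unadjusted p under 0.05 by edgeR), 0 against the 4 WT libraries of 2 weeks (634) and 0 with the missing TPM share as a covariate (1398). With early libraries of 1 date code it was 5 (1019), 1 (1102) and 18 (1130), and by sex 5 in females and 15 in males; these fits hold fewer samples. The replicate block could use 10 libraries with shared numbers and called 1 gene, against 133 in the same 10 without it; correlations of same-numbered libraries ran from -0.0303 to 0.0828 and 1 of 5 pairs correlated best with its own number, so the numbers do not pair the samples. Between WT libraries by date code DESeq2 called 229 genes, and leaving out single libraries gave 0 to 5. The sex in the labels took the interaction from 7 to 2 genes. The difference in total counts, in units of 1e6, was 1.65 and ranged from 1.29 to 2.05 without single libraries, and passed the threshold without Early 4 (1.858; exact permutation p = 0.0476), Early 6 (2.052; p = 0.0195) or Control 5 (1.87; p = 0.048).

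Of 59 called genes named, 39 were called in all 13 fits without 1 library. The sign reversed with the TPM share covariate for Siglech (-0.0132), Hnrnpc (0.0998), Dnajb9 (0.0858), Stat2 (-0.102) and Ebp (0.0338). It reversed with the date term for Pou2f2 (-0.144), Ptpn6 (-0.0175), Apoe (-1.05), Hnrnpdl (-0.161), Slc2a5 (0.0311), Siglech (-0.184) and Mt1 (-0.111), and in the difference of differences for Pou2f2 (-0.324), Ptpn6 (-0.0496), Tsc22d3 (0.0546), Apoe (-1.0), Hnrnpdl (-0.357) and Siglech (-0.204). Against the 5 and the 4 WT libraries it reversed for Pou2f2 (-0.129, -0.217), Ptpn6 (-0.0624, -0.0785), Pttg1 (-0.311, -0.252), Ccnl2 (-0.0227, -0.063), Apoe (-0.621, -0.896), Hnrnpdl (-0.0668, -0.103), Siglech (-0.303, -0.255), Dnajb9 (0.0579, 0.0445) and Bax (-0.00184, -0.038). The cause was not tested. The fit without Controls 5 and 7 was chosen after seeing the data.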
